A study of Mus musculus with 12 samples.

Results

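The Notch pathway was followed through 10 of its genes in cultured mouse astrocytes that had been laid on brain sections. The set comprised the ligands Dll1 and Jag1, the receptors Notch1, Notch2 and Notch3, the target genes Hes1, Hes5, Hey1 and Hey2, and Nrarp, which is both a target and an inhibitor. The members were all probe sets that the supplied array annotation pairs with one of these symbols and no other gene. There were 17 such probe sets among 45037 tested, and each was kept apart: 3 for Jag1, 2 each for Notch1, Notch2, Notch3, Hes5 and Nrarp, and 1 each for Dll1, Hes1, Hey1 and Hey2. All 17 had a value on every array, and no filter on low values was applied.

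RNA was measured on 12 one-colour Affymetrix arrays, 3 in each of 4 groups: adult astrocytes on APdE9 sections, adult astrocytes on wild-type sections, neonatal astrocytes on APdE9 sections and neonatal astrocytes on wild-type sections. All astrocytes carried eGFP, came from C57Bl/6j mice (6 to 8 weeks old for adult cells, and 3 d for neonatal cells in the age labels, where the growth text has 2 d) and stayed on the section for 22 h. APdE9 mice carry chimeric mouse/human APPSwe and PS1-dE9 transgenes, each under a mouse prion protein promoter, and the wild-type sections came from their littermates. The transgenes were thus in the section and not in the astrocytes measured. Percoll isolation and a DMEM/F12 medium with G5 supplement were used for adult cells only, and plain DMEM for neonatal cells, so culture conditions cannot be told apart from age. The green cells were picked off the section by suction. The labels name biological replicates, give n = 6 for the incubations and mention a pooling of samples (n = 3) ahead of RNA isolation, without tying pools to arrays. Each array was taken to hold 1 pool, and p-values measure only the spread between arrays, which may be partly technical.

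Notch signalling passes between touching cells. A Delta or Jagged ligand on one cell binds a Notch receptor on its neighbour, an ADAM protease and then gamma-secretase cut the receptor, and the freed intracellular domain joins the DNA-binding protein RBPJ in the nucleus to switch on Hes and Hey genes. In the developing brain these transcriptional repressors hold back neuronal differentiation and favour glial fate, and Nrarp binds the intracellular domain and dampens the signal.

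The promoter windows of 3 targets are printed: Hes5 for its widest age difference, Nrarp for the only called difference between the section effects, and Hey2, which carries no called difference, as a second target to set beside them. The windows are RefSeq sequences of the mouse GRCm38.p6 build, 250 bases before to 50 bases after the annotated start. Capitals mark the core of the RBPJ motif, TGGGAA, or its reverse complement TTCCCA.
Hes5 (chr4:154960673-154960972, + strand): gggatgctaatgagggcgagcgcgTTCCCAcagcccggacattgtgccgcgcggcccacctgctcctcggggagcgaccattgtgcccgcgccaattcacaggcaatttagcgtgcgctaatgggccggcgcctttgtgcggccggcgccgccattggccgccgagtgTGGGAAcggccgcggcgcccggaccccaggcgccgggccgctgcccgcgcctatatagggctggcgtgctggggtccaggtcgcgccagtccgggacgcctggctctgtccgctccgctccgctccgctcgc
Hey2 (chr10:30842734-30843033, - strand): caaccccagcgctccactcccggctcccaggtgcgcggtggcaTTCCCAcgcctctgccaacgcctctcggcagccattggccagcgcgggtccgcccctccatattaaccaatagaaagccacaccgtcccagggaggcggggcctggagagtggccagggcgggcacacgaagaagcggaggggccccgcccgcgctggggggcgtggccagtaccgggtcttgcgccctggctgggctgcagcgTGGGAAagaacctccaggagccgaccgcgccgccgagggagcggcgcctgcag
Nrarp (chr2:25180508-25180807, + strand): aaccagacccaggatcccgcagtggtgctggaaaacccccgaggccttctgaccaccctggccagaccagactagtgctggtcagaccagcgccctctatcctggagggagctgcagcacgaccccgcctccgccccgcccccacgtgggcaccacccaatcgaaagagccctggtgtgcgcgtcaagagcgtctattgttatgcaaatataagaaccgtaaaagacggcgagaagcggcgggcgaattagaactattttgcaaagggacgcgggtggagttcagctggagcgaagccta
Hes5 held the core at 226 to 221 bases before the start on the opposite strand and at 82 to 77 bases before it on the same strand. Hey2 held it at 207 to 202 bases before the start on the opposite strand and again from 3 bases before the start. The letters did not occur in the Nrarp window. Of the 10 members 8 had a window, with 9 windows in all because Dll1 had 2, and 2 of the 9 windows held the core. Among all 32851 windows of the same length, 8397 (25.6%) held it on either strand. A match is a run of letters and not a binding site.

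The deposited log2 values are centred on the median of each probe set over all arrays, so they give positions around that median: a negative value is no absence of signal, and levels cannot be compared between probe sets. The first principal component of the arrays held 59.9% of the variance. At a limma adjusted p under 0.05, 10331 of all probe sets were called for cell age on wild-type and 7401 on APdE9 sections. For the section 5724 were called in adult and 901 in neonatal cells. Replicates of a group correlated between 0.515 and 0.844 over the centred values. Whether the cells held astrocyte markers above background cannot be read from centred values. Of 29 probe sets of 8 astrocyte marker genes, 19 fell and 3 rose in adult cells on wild-type sections relative to neonatal ones, and 17 fell and 2 rose on APdE9 sections. The mean centred value of this list lay between -0.764 and -0.707 in adult cells on APdE9 sections, between -0.798 and -0.721 in adult cells on wild-type sections, between 0.603 and 0.777 in neonatal cells on APdE9 sections and between 1.08 and 1.13 in neonatal cells on wild-type sections. Microglia markers fell with age in 8 of 10 probe sets on both kinds of section, and 1 rose on wild-type sections. The mean of the microglia list lay between -1.29 and -1.11 in adult cells on APdE9 sections and between -1.54 and -1.19 in adult cells on wild-type sections, against 1.46 to 1.54 and 1.08 to 1.64 in neonatal cells on the same sections. Of 15 endothelial probe sets 7 rose and 2 fell with age on wild-type sections, and 6 rose and 1 fell on APdE9 sections. Ependymal markers fell in 6 of 14 probe sets on wild-type and in 3 on APdE9 sections, and none rose. Of 21 probe sets of neural stem cells and radial glia 6 fell and 4 rose with age on wild-type sections. On APdE9 sections 3 of these fell and 4 rose. Among 12 probe sets of dividing cells 6 fell and none rose on APdE9 sections, and none was called on wild-type sections. The part of these lists in the differences below was not tested, and fewer cells of a type cannot be told apart from less RNA per cell.

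More Notch probe sets were called for cell age than for the section. On wild-type sections 8 of 17 probe sets fell in adult cells and none rose (both probe sets each of Notch1, Notch3, Hes5 and Nrarp), where 10.8% of all probe sets fell and 12.2% rose. The median log2 difference of the members, adult minus neonatal, was -0.62, against 0.03 over all probe sets. On APdE9 sections 3 of 17 fell (1 each of Notch2, Notch3 and Hes5) and 2 rose (both of Jag1), where 8.39% of all probe sets fell and 8.04% rose. The median was -0.23 for the members and 0.06 for all probe sets. The calls are those of limma at a Benjamini-Hochberg adjusted p under 0.05 over all 45037 probe sets.

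None of the 17 probe sets passed the limma test for the APdE9 against the wild-type section at either age. In adult cells 0 were called higher or lower, where 5.73% of all probe sets rose and 6.98% fell. In neonatal cells 0 were called, where 0.582% of all probe sets rose and 1.42% fell. The median member difference, APdE9 minus wild-type section, was 0.18 in adult and -0.25 in neonatal cells, against 0.04 and 0.01 over all probe sets. With replicate number as a block, which pairs the neonatal arrays, both Nrarp probe sets were called lower in neonatal cells on APdE9 sections. Of the differences between the adult and the neonatal section effect, 1 of 17 was called higher (Nrarp) and none lower, where 3.36% of all probe sets were called higher and 3.36% lower.

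**Figure D1:**
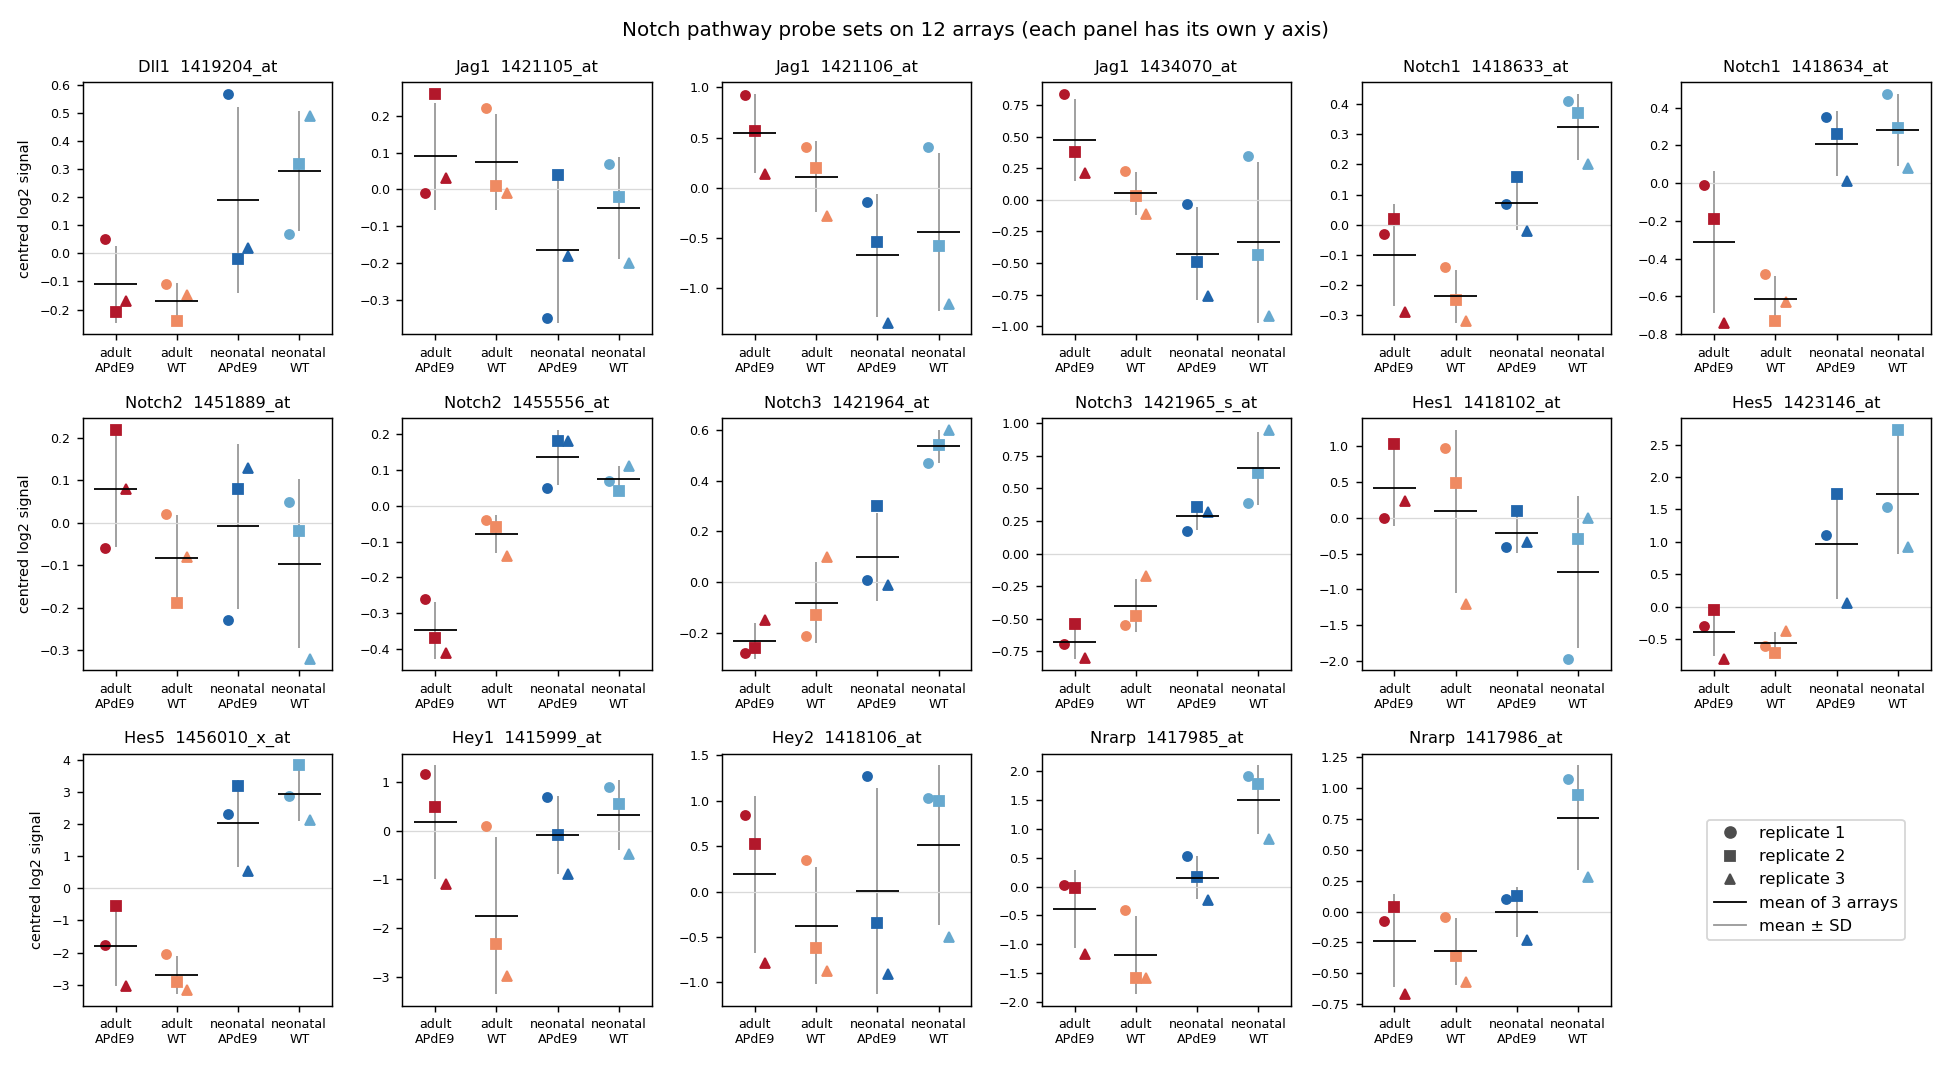
Centred log2 value (vertical axes, a scale for each panel) of each of the 17 Notch probe sets on the 12 arrays, by group (horizontal axes), with 1 point per array, a bar at the mean of 3 and a line of ± 1 SD. Hes5 and Nrarp sit lowest in adult cells on wild-type sections and highest in neonatal cells on wild-type sections.

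Jag1, a ligand of the Serrate family, was higher in adult cells on APdE9 sections. Its probe set 1421106_at stood at 0.92, 0.57 and 0.14 (replicates 1, 2 and 3) in adult cells on APdE9 sections and at 0.41, 0.20 and -0.28 in adult cells on wild-type sections, against -0.14, -0.54 and -1.34 in neonatal cells on APdE9 sections and 0.41, -0.58 and -1.15 in neonatal cells on wild-type sections. On APdE9 sections all 3 adult arrays lay above all 3 neonatal ones, while on wild-type sections the ages overlapped. The age difference on APdE9 sections was 1.22 ± 0.38 (log2 ± SE from limma with 3 arrays a group, adjusted p = 0.0486), and on wild-type sections it was 0.55 ± 0.38 (adjusted p = 0.376). The probe set 1434070_at stood at 0.84, 0.38 and 0.21 in adult cells on APdE9 sections and at 0.23, 0.03 and -0.11 in adult cells on wild-type sections, against -0.03, -0.49 and -0.76 in neonatal cells on APdE9 sections and 0.35, -0.44 and -0.92 in neonatal cells on wild-type sections. It showed the same gap between ages on APdE9 sections and the same overlap on wild-type sections. Its age difference was 0.90 ± 0.28 on APdE9 sections (limma adjusted p = 0.0483) and 0.39 ± 0.28 on wild-type sections (adjusted p = 0.408). The remaining probe set, 1421105_at, ranged between -0.35 and 0.26 over the 12 arrays and was not called. Whether the age difference of Jag1 itself differed between the sections was tested by the difference of the section effects, which was 0.66 (limma adjusted p = 0.588) and 0.52 (adjusted p = 0.564) for the first 2 probe sets.

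Both Jag1 calls lay close to the threshold and were lost in 8 of 12 fits that left out an array. For 1421106_at the limma adjusted p was 0.153 without adult APdE9 replicate 1, 0.118 without adult APdE9 replicate 2, 0.0585, 0.0671 and 0.0521 without adult WT replicates 1, 2 and 3, 0.0859 and 0.173 without neonatal APdE9 replicates 2 and 3, and 0.0665 without neonatal WT replicate 2. For 1434070_at the values for the same arrays were 0.163, 0.0937, 0.0603, 0.0673, 0.0592, 0.116, 0.159 and 0.0663. The WT arrays lie outside this contrast but share the estimate of spread, and without each of those named the differences stayed at 1.22 and 0.90. With replicate number as a block, which pairs the arrays on APdE9 sections, both calls held, with limma adjusted p of 0.000128 and 0.000632. Both were lost with quantile normalization (0.0637 and 0.0727), with array medians set to 0 (0.0609 and 0.064) and with a robust variance prior (0.0742 and 0.0608).

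Dll1, a Delta ligand, lay close to the threshold for age on wild-type sections and was not called in any comparison of the 4-group fit. It stood at 0.05, -0.21 and -0.17 in adult cells on APdE9 sections and at -0.11, -0.24 and -0.15 in adult cells on wild-type sections, against 0.57, -0.02 and 0.02 in neonatal cells on APdE9 sections and 0.07, 0.32 and 0.49 in neonatal cells on wild-type sections. On wild-type sections the adult arrays lay below the neonatal ones without overlap, with a difference of -0.46 ± 0.16 (log2, limma adjusted p = 0.0534). The adjusted p was 0.0133 and 0.0474 without neonatal APdE9 replicates 1 and 2, and 0.0328 without neonatal WT replicate 1. The former 2 arrays lie outside that contrast but share the estimate of spread. Dll1 was called in these 3 of 12 fits that left out an array, with a limma adjusted p of up to 0.176. It was also called with array weights (0.00518), with only the arrays compared (0.029), with the least variable probe sets dropped (0.0441), with quantile normalization (0.0451) and over gene means (0.0378). The adjusted p was 0.0514 with the robust variance prior, 0.0587 with array medians set to 0 and 0.272 with the arrays numbered 1 and 2. On APdE9 sections the ages overlapped, and the difference was -0.30 ± 0.16 (adjusted p = 0.247).

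Among the receptors, Notch3, which in the brain is best known from vascular smooth muscle and pericytes, was lower in adult cells on both kinds of section. Its probe set 1421965_s_at stood at -0.69, -0.54 and -0.80 in adult cells on APdE9 sections and at -0.55, -0.48 and -0.17 in adult cells on wild-type sections, against 0.17, 0.36 and 0.32 in neonatal cells on APdE9 sections and 0.39, 0.62 and 0.95 in neonatal cells on wild-type sections. Every adult array lay below 0 and every neonatal array above it. Adult minus neonatal cells gave -0.96 ± 0.15 on APdE9 sections (log2, limma adjusted p = 0.000509) and -1.05 ± 0.15 on wild-type sections (adjusted p = 0.000175). The probe set 1421964_at stood at -0.28, -0.26 and -0.15 in adult cells on APdE9 sections and at -0.21, -0.13 and 0.10 in adult cells on wild-type sections, against 0.01, 0.30 and -0.01 in neonatal cells on APdE9 sections and 0.47, 0.54 and 0.60 in neonatal cells on wild-type sections. It was lower in adult cells on wild-type sections, at -0.62 ± 0.11 (limma adjusted p = 0.00129), and on APdE9 sections the difference was -0.33 ± 0.11 (adjusted p = 0.0625, but 0.04 with quantile normalization, 0.0368 with array medians set to 0 and 0.0499 without adult WT replicate 3). Adult WT replicate 3 lies outside that contrast but shares the estimate of spread. The APdE9 difference was called in 1 of 12 fits that left out an array (limma adjusted p up to 0.207). Of 8 other settings 2 called it, with up to 0.12. Markers of mural and smooth muscle cells moved the other way with age on wild-type sections, where 7 of 17 probe sets rose in adult cells and none fell. The mean of that list lay between 0.422 and 0.548 in adult cells on wild-type sections and between -0.217 and -0.051 in neonatal cells on wild-type sections. On APdE9 sections 3 of the 17 fell with age and 2 rose, and the mean of the list lay between -0.162 and -0.068 in adult and between -0.158 and -0.046 in neonatal cells. Its part in the difference of Notch3 was not tested.

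Notch3 also stood lower in neonatal cells on APdE9 sections, short of the threshold. The section difference was -0.44 ± 0.11 for 1421964_at (log2, limma adjusted p = 0.0749, 95% interval -0.68 to -0.20) and -0.37 ± 0.15 for 1421965_s_at (adjusted p = 0.316). For both probe sets the 3 arrays on APdE9 sections lay below the 3 on wild-type sections. Without neonatal APdE9 replicate 2 the difference of 1421964_at was -0.54 with an adjusted p of 0.0445, and array weights gave 0.0206. That was the only call in 12 fits that left out an array, with a limma adjusted p of up to 0.246. Array weights were the only 1 of 8 other settings with a call, with up to 0.38. In adult cells the same difference was -0.15 ± 0.11 (adjusted p = 0.441) for 1421964_at and -0.28 ± 0.15 (adjusted p = 0.266) for 1421965_s_at, with overlapping groups.

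Notch1, the receptor best known from neural stem cells, was lower in adult cells on wild-type sections. Its probe set 1418634_at stood at -0.01, -0.19 and -0.74 in adult cells on APdE9 sections and at -0.48, -0.73 and -0.63 in adult cells on wild-type sections, against 0.35, 0.26 and 0.01 in neonatal cells on APdE9 sections and 0.47, 0.29 and 0.08 in neonatal cells on wild-type sections. The ages did not overlap on either section. Adult minus neonatal cells gave -0.90 ± 0.17 on wild-type sections (log2, limma adjusted p = 0.00217). On APdE9 sections it was -0.52 ± 0.17 (adjusted p = 0.0608), with an adjusted p of 0.00797 with the replicate block and 0.0242 without adult APdE9 replicate 1. The latter was the only call in 12 fits that left out an array, with a limma adjusted p of up to 0.196. Of 8 other settings 3 gave a call, with up to 0.133. The probe set 1418633_at stood at -0.03, 0.02 and -0.29 in adult cells on APdE9 sections and at -0.14, -0.25 and -0.32 in adult cells on wild-type sections, against 0.07, 0.16 and -0.02 in neonatal cells on APdE9 sections and 0.41, 0.37 and 0.20 in neonatal cells on wild-type sections. Its age difference was -0.56 ± 0.11 on wild-type sections (limma adjusted p = 0.00189) and -0.17 ± 0.11 on APdE9 sections (adjusted p = 0.334), where the ages overlapped. In neonatal cells its 3 arrays on APdE9 sections lay below the 3 on wild-type sections, at -0.25 ± 0.11 (adjusted p = 0.36). In adult cells the section difference of 1418634_at was 0.30 ± 0.17 (adjusted p = 0.314), and without adult APdE9 replicate 3 it was 0.51 with an adjusted p of 0.0409. That was the only call in 12 such fits, with a limma adjusted p of up to 0.66, and none of 8 other settings called it. The difference of the section effects of Notch1 was 0.37 (adjusted p = 0.473) for 1418634_at and 0.39 (adjusted p = 0.17) for 1418633_at.

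Notch2, a receptor also found in glia, had small differences. The probe set 1455556_at stood at -0.26, -0.37 and -0.41 in adult cells on APdE9 sections and at -0.04, -0.06 and -0.14 in adult cells on wild-type sections, against 0.05, 0.18 and 0.18 in neonatal cells on APdE9 sections and 0.07, 0.04 and 0.11 in neonatal cells on wild-type sections. The 3 adult arrays on APdE9 sections were the lowest of the 12. Adult cells on APdE9 sections were lower than neonatal ones on the same sections, at -0.48 ± 0.08 (log2, limma adjusted p = 0.00129), while on wild-type sections the difference was -0.15 ± 0.08 (adjusted p = 0.236). Within adult cells the section difference was -0.27 ± 0.08 (adjusted p = 0.0537), with no overlap of the groups, and the adjusted p was 0.0495 without neonatal APdE9 replicate 1, an array outside that contrast that shares the estimate of spread. With array medians set to 0 it was 0.0357. This section difference was called in 1 of 12 fits that left out an array (limma adjusted p up to 0.151). Of 8 other settings 2 called it, with up to 0.226. The other probe set, 1451889_at, ranged between -0.32 and 0.22 over the 12 arrays and was not called.

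Hes5, the target gene most often used as a readout of Notch signalling in neural progenitors, had the widest age difference of the members. Its probe set 1456010_x_at stood at -1.75, -0.55 and -3.04 in adult cells on APdE9 sections and at -2.03, -2.92 and -3.16 in adult cells on wild-type sections, against 2.32, 3.19 and 0.55 in neonatal cells on APdE9 sections and 2.88, 3.82 and 2.11 in neonatal cells on wild-type sections. Every adult array lay below every neonatal one. Adult minus neonatal cells gave -5.64 ± 0.71 on wild-type sections (log2, limma adjusted p = 7.62e-05) and -3.80 ± 0.71 on APdE9 sections (adjusted p = 0.00234). The probe set 1423146_at stood at -0.30, -0.05 and -0.80 in adult cells on APdE9 sections and at -0.61, -0.71 and -0.37 in adult cells on wild-type sections, against 1.11, 1.73 and 0.05 in neonatal cells on APdE9 sections and 1.54, 2.73 and 0.92 in neonatal cells on wild-type sections. It ran the same way with smaller differences, -2.30 ± 0.45 on wild-type sections (limma adjusted p = 0.00225) and -1.35 ± 0.45 on APdE9 sections (adjusted p = 0.06). On APdE9 sections the ages did not overlap for this probe set either, and the adjusted p was 0.00877 with the replicate block. It was 0.0134 without neonatal APdE9 replicate 3, 0.0247 without neonatal WT replicate 2 and 0.0382 without neonatal WT replicate 3. These 3 were the only calls in 12 such fits, with a limma adjusted p of up to 0.205. The WT arrays lie outside that contrast but share the estimate of spread. In 8 other settings 3 calls were made, with 0.157 for array weights and 0.0879 for quantile normalization.

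The section left Hes5 without a call at either age. For 1456010_x_at the difference, APdE9 minus wild-type section, was 0.92 ± 0.71 in adult cells (log2, limma adjusted p = 0.466) and -0.92 ± 0.71 in neonatal cells (adjusted p = 0.768), and the groups overlapped at both ages. In order of their means the 4 groups were neonatal cells on wild-type sections (2.94), neonatal cells on APdE9 sections (2.02), adult cells on APdE9 sections (-1.78) and adult cells on wild-type sections (-2.70), and within each age the neighbours did not differ beyond their spread. The difference of the section effects was 1.84 ± 1.00 (adjusted p = 0.362).

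Hes1, the other Hes repressor among the 10 members, varied widely between replicates. It stood at 0.00, 1.04 and 0.23 in adult cells on APdE9 sections and at 0.98, 0.49 and -1.20 in adult cells on wild-type sections, against -0.41, 0.10 and -0.34 in neonatal cells on APdE9 sections and -1.97, -0.30 and 0.00 in neonatal cells on wild-type sections. The groups overlapped in every comparison. The age difference was 0.85 ± 0.56 on wild-type sections (log2, limma adjusted p = 0.355) and 0.64 ± 0.56 on APdE9 sections (adjusted p = 0.524), opposite in sign to that of Hes5.

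Hey1, a Hes-related repressor, had its lowest values in adult cells on wild-type sections. It stood at 1.16, 0.48 and -1.10 in adult cells on APdE9 sections and at 0.09, -2.32 and -2.99 in adult cells on wild-type sections, against 0.70, -0.09 and -0.89 in neonatal cells on APdE9 sections and 0.90, 0.54 and -0.48 in neonatal cells on wild-type sections. The arrays numbered 2 and 3 of adult cells on wild-type sections lay far below the rest, but replicate 1 did not, and the groups overlapped. The section difference in adult cells was 1.92 ± 0.76 (log2, limma adjusted p = 0.132, 95% interval 0.27 to 3.57), and the age difference on wild-type sections was -2.06 ± 0.76 (adjusted p = 0.0733). These contrasts share the adult arrays on wild-type sections. Without adult WT replicate 1 the section difference was 2.84 with an adjusted p of 0.0164, and the age difference was -2.97 with an adjusted p of 0.00646. The age difference was also called with array weights (adjusted p = 0.00922) and with the least variable probe sets dropped (0.0445). Each difference was called in 1 of 12 fits that left out an array. The limma adjusted p reached 0.357 for the section and 0.253 for age in those fits. Of 8 other settings 3 called the age and 1 the section difference, and quantile normalization gave 0.151 and 0.19. In neonatal cells the section difference of Hey1 was -0.41 ± 0.76 (adjusted p = 0.946).

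Hey2, which with Hey1 is known from vascular and cardiac development, was not called in any comparison of the 4-group fit. It stood at 0.84, 0.52 and -0.79 in adult cells on APdE9 sections and at 0.35, -0.62 and -0.87 in adult cells on wild-type sections, against 1.27, -0.35 and -0.91 in neonatal cells on APdE9 sections and 1.03, 1.00 and -0.50 in neonatal cells on wild-type sections. The 4 groups overlapped throughout. Its age difference was -0.89 ± 0.60 on wild-type sections (log2, limma adjusted p = 0.363, 95% interval -2.20 to 0.42, and adjusted p = 0.048 with array weights) and 0.19 ± 0.60 on APdE9 sections (adjusted p = 0.886).

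**Figure D2:**
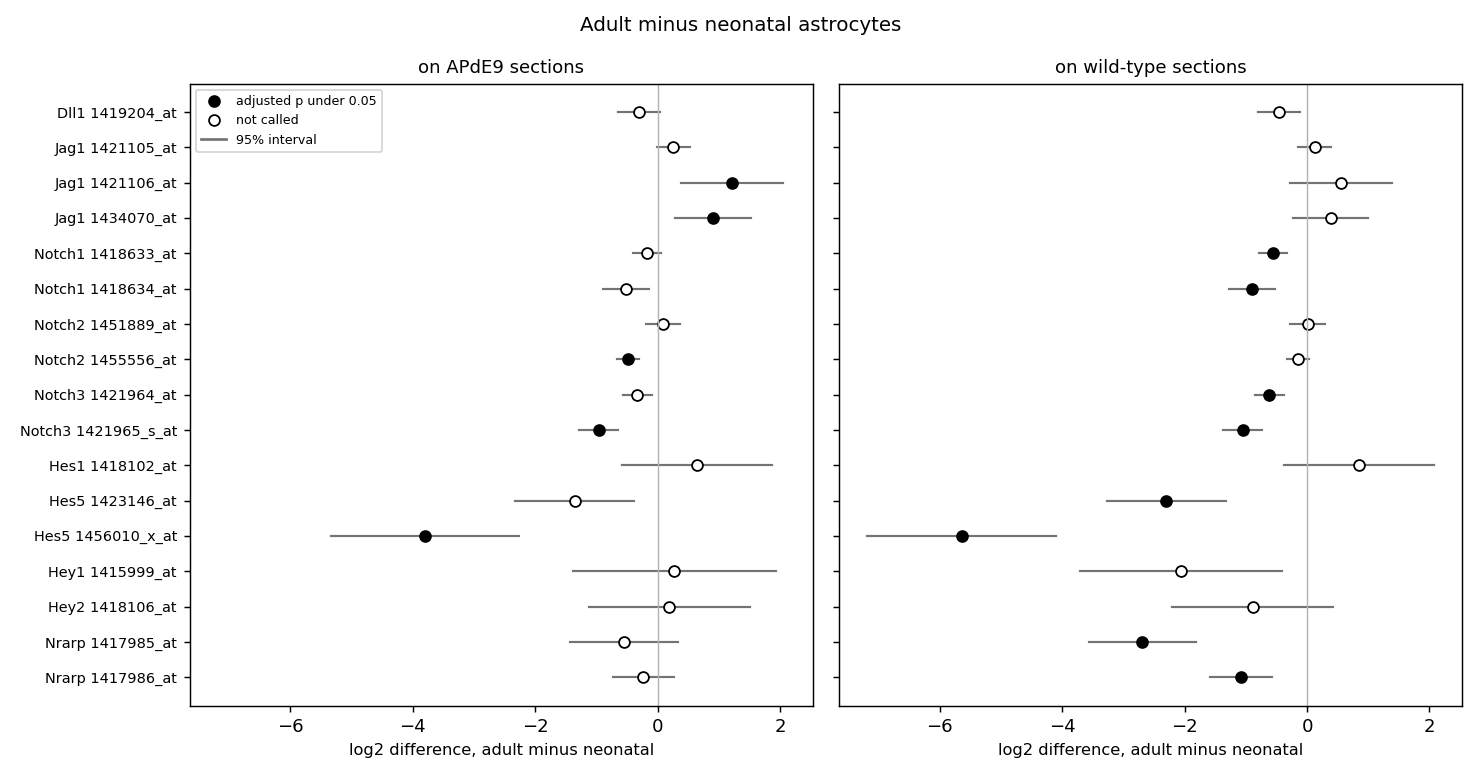
Log2 difference between adult and neonatal cells (horizontal axes) of each Notch probe set (rows) on APdE9 and on wild-type sections, with 95% intervals; filled points have a limma adjusted p under 0.05. Hes5 1456010_x_at lies farthest to the left, at -3.80 on APdE9 and -5.64 on wild-type sections, and both Nrarp probe sets are filled on wild-type sections only.

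Nrarp, the feedback inhibitor, was lower in adult than in neonatal cells on wild-type sections, and for 1 of its probe sets the section difference differed between adult and neonatal cells. Its probe set 1417985_at stood at 0.02, -0.02 and -1.17 in adult cells on APdE9 sections and at -0.40, -1.58 and -1.58 in adult cells on wild-type sections, against 0.53, 0.17 and -0.23 in neonatal cells on APdE9 sections and 1.92, 1.77 and 0.82 in neonatal cells on wild-type sections. The neonatal arrays on wild-type sections lay above all others. The age difference on wild-type sections was -2.69 ± 0.40 (log2, limma adjusted p = 0.000333), and on APdE9 sections, where the ages overlapped, it was -0.55 ± 0.40 (adjusted p = 0.434). The probe set 1417986_at stood at -0.08, 0.04 and -0.67 in adult cells on APdE9 sections and at -0.04, -0.36 and -0.57 in adult cells on wild-type sections, against 0.10, 0.13 and -0.23 in neonatal cells on APdE9 sections and 1.07, 0.94 and 0.28 in neonatal cells on wild-type sections. Again the neonatal arrays on wild-type sections were the highest 3 of the 12. Its age difference was -1.08 ± 0.23 on wild-type sections (limma adjusted p = 0.00424) and -0.23 ± 0.23 on APdE9 sections (adjusted p = 0.578).

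In neonatal cells both Nrarp probe sets stood lower on APdE9 than on wild-type sections, without overlap. The difference was -1.35 ± 0.40 for 1417985_at (log2, limma adjusted p = 0.144, 95% interval -2.22 to -0.47) and -0.76 ± 0.23 for 1417986_at (adjusted p = 0.15, 95% interval -1.27 to -0.26). With replicate number as a block over all 12 arrays, the limma adjusted p was 0.00442 and 0.00554. Neither was called in any of 12 fits that left out an array (adjusted p up to 0.441 and 0.459). In the same comparison 8 of 29 astrocyte probe sets and 3 of 12 probe sets of dividing cells fell and none of either rose, while 5 of 18 of the oligodendrocyte lineage and 2 of 17 of mural and smooth muscle cells rose and none of either fell. The mean of the dividing-cell list lay between -0.288 and -0.077 in neonatal cells on APdE9 sections and between 0.175 and 0.994 in neonatal cells on wild-type sections. In adult cells the section difference ran the other way, 0.80 ± 0.40 (adjusted p = 0.246) and 0.09 ± 0.23 (adjusted p = 0.861), with overlapping groups. The section effect in adult minus that in neonatal cells was 2.14 ± 0.57 for 1417985_at (limma adjusted p = 0.0441), the only such call among the members, and 0.85 ± 0.33 for 1417986_at (adjusted p = 0.168). This contrast shares the neonatal arrays on wild-type sections with the age and the section differences of Nrarp given above. In it 10 of 29 astrocyte probe sets were called higher and none lower, and 4 of 17 mural and 3 of 12 dividing-cell probe sets were called lower and none higher. The part of these lists in the Nrarp differences was not tested.

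The call on the section effects of Nrarp 1417985_at was lost in 9 of 12 fits that left out an array. It was also lost with quantile normalization (adjusted p = 0.0506) and with the robust variance prior (0.0698). The adjusted p was 0.0943 and 0.109 without adult APdE9 replicates 1 and 2, 0.115 and 0.0954 without adult WT replicates 2 and 3, 0.05, 0.0842 and 0.0917 without neonatal APdE9 replicates 1, 2 and 3, and 0.0951 and 0.111 without neonatal WT replicates 1 and 2. For 1417986_at the limma adjusted p was 0.0492 without neonatal WT replicate 3, the only call in 12 such fits (up to 0.33). The difference of 1417985_at lay between 1.93 and 2.53 in all 12 fits. Of the 14 called differences over all members and comparisons, 11 were called in each of the 12 fits, and the other 3 were this one and both of Jag1.

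**Figure D3:**
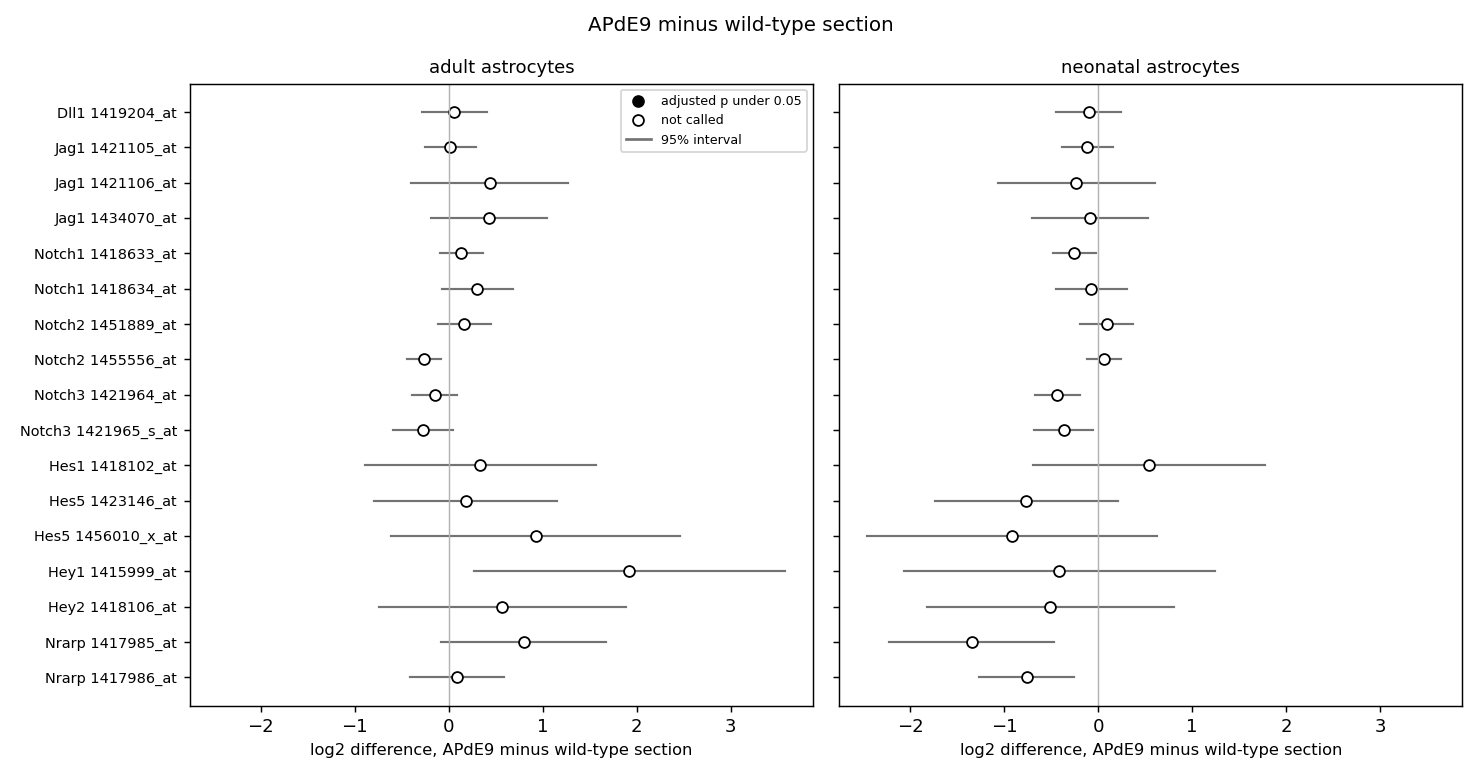
Log2 difference between APdE9 and wild-type sections (horizontal axes) of each Notch probe set (rows) in adult and in neonatal cells, with 95% intervals; open points did not pass a limma adjusted p of 0.05. All points are open, and Nrarp 1417985_at lies at 0.80 in adult and at -1.35 in neonatal cells.

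Several Notch genes varied together with the replicate number, which the labels give without saying that a number marks a shared culture, day or section. Replicate 3 was the lowest array of its group in all 4 groups for 7 of 17 probe sets, against 4.54% of the 45031 probe sets tested with a value on all 12 arrays. These were Jag1 1421106_at and 1434070_at, Notch1 1418633_at, Hes5 1456010_x_at, Hey1, Hey2 and Nrarp 1417986_at. Replicate 1 was the highest in all 4 groups for 6 of 17 (both of those Jag1 probe sets, Notch1 1418634_at, Hey1, Hey2 and Nrarp 1417985_at), against 3.46% of all. Hey2, for example, stood at 0.84, 0.35, 1.27 and 1.03 on the arrays numbered 1 and at -0.79, -0.87, -0.91 and -0.50 on those numbered 3, in adult cells on APdE9, adult cells on wild-type, neonatal cells on APdE9 and neonatal cells on wild-type sections. No probe set of Dll1, Notch2, Notch3 or Hes1 was in either count. These counts describe the arrays, and no cause was tested.

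**Figure D4:**
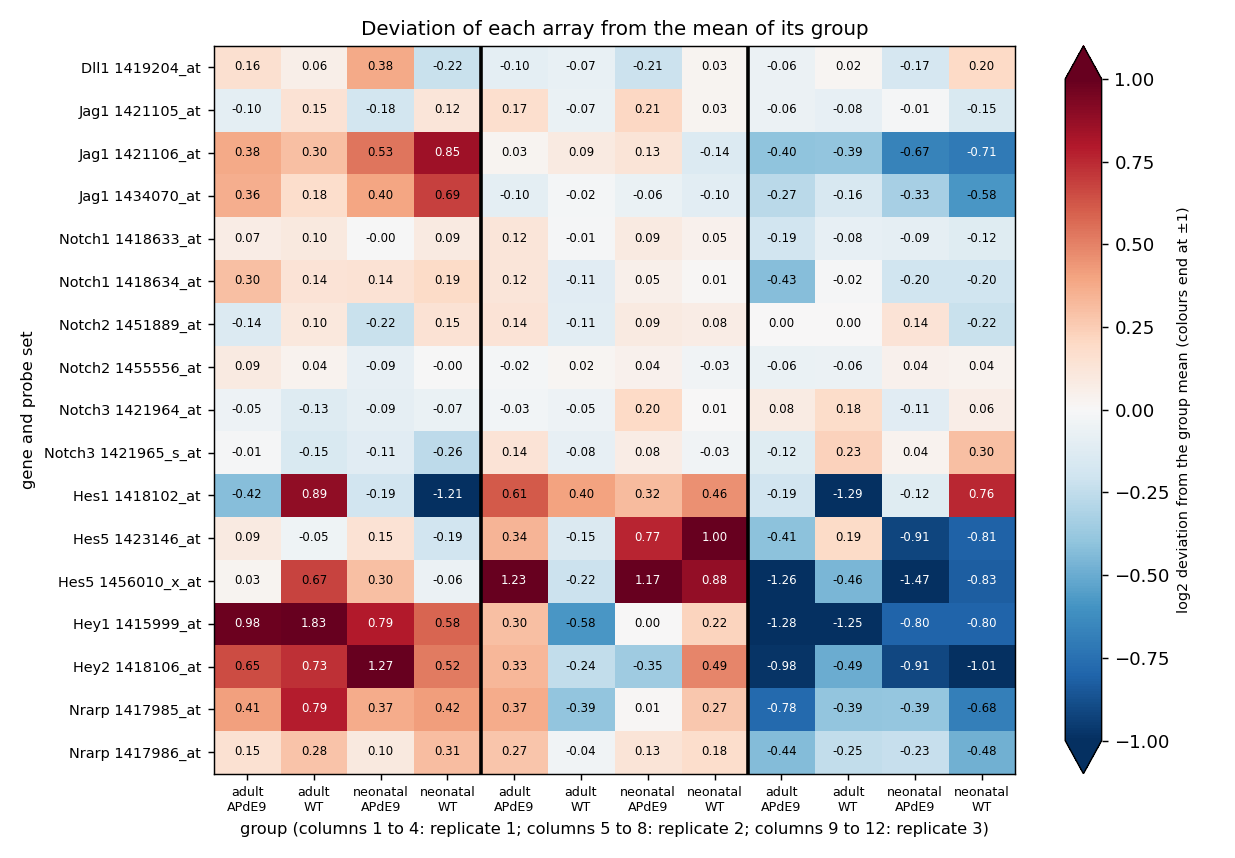
Deviation of each array from the mean of its group (colour and printed value, log2) for the 17 Notch probe sets (rows); the columns hold the arrays numbered 1, then 2, then 3, each in the order adult APdE9, adult WT, neonatal APdE9, neonatal WT. Jag1, Hey1, Hey2 and Nrarp are mostly above their group means on the arrays numbered 1 and below them on those numbered 3.

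Beyond the 10 members, a list of 51 further measured pathway genes was read through 108 probe sets, and the values below are log2 differences. On wild-type sections 18 of the 108 (16.7%) fell and 17 (15.7%) rose in adult relative to neonatal cells, where 10.8% of all probe sets fell and 12.2% rose. On APdE9 sections 8 (7.41%) fell and 14 (13.0%) rose, where 8.39% of all fell and 8.04% rose. The median log2 difference was 0.00 on wild-type and 0.09 on APdE9 sections, against 0.03 and 0.06 over all probe sets. Each value below is that of 1 probe set of the gene. Dner, a transmembrane protein proposed as a Notch ligand that acts on glia, was lower in adult cells at -2.93 ± 0.15 on wild-type sections (limma adjusted p = 2.76e-08) and at -2.75 ± 0.15 on APdE9 sections (adjusted p = 7.29e-08). The Deltex genes encode ubiquitin ligases that bind Notch: Dtx1 was lower at -1.61 (adjusted p = 9.06e-06) and -0.99 (adjusted p = 0.000777) on wild-type and APdE9 sections, and Dtx4 at -1.0 (adjusted p = 0.000608) and -1.59 (adjusted p = 1.73e-05). Tle3, a Groucho corepressor that Hes proteins recruit, was lower in adult cells on wild-type sections at -1.05 (adjusted p = 0.00282). Lfng, the Fringe enzyme that adds sugars to Notch receptors, was lower on APdE9 sections at -0.60 (adjusted p = 0.0237), a call that was lost in 2 of 12 fits that left out an array, with an adjusted p of up to 0.0935. The other probe set of Dtx1 was at 0.01 on wild-type and -0.02 on APdE9 sections and that of Lfng at 0.04 on APdE9 sections, and neither was called.

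Other pathway genes were higher in adult cells. The corepressor Tle2 was higher by 0.99 on wild-type sections (limma adjusted p = 0.00446) and by 1.08 on APdE9 sections (adjusted p = 0.00334). Neurl1a, a ubiquitin ligase, was higher by 0.75 (adjusted p = 0.00959) and 0.80 (adjusted p = 0.00904), with 2 of its 6 probe sets called on each section. On wild-type sections Nedd4, another ubiquitin ligase, was higher by 2.32 (adjusted p = 0.00376) and the receptor-cutting protease Adam10 by 0.93 (adjusted p = 0.0147), with an adjusted p of up to 0.0628 for Adam10 in 2 of 12 fits that left out an array. The Adam10 value is that of 1450105_at, and the other 3 probe sets of the gene differed by at most 0.23 and were not called. On APdE9 sections the Notch inhibitor Numb was higher by 0.67 (adjusted p = 0.00532, in 1 of 2 probe sets), and so was the gamma-secretase subunit Aph1a by 0.57 (adjusted p = 0.000929), although a further Aph1a probe set was lower at -0.42 (adjusted p = 0.0285).

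The section called none of the 108 in neonatal cells in limma, where 0.582% of all probe sets rose and 1.42% fell. In adult cells 9 of the 108 (8.33%) rose and 6 (5.56%) fell on APdE9 relative to wild-type sections, where 5.73% of all probe sets rose and 6.98% fell, shares that lie near one another. The Notch4 receptor, known from endothelium, was higher by 0.71 ± 0.14 (limma adjusted p = 0.00547), the ligand-activating ubiquitin ligase Mib2 by 0.66 ± 0.14 (adjusted p = 0.0073) and Dtx2 by 0.61 ± 0.14 (adjusted p = 0.0113, and 0.0541 without adult WT replicate 2). The bHLH target Heyl was higher by 0.88 ± 0.26 (adjusted p = 0.0418), with the call lost in 9 of 12 fits that left out an array (up to 0.145). The gamma-secretase subunit Aph1b was lower at -0.64 ± 0.13 (adjusted p = 0.00716). Nedd4 was lower at -1.76 ± 0.49 (adjusted p = 0.0331), Adam10 at -0.83 ± 0.24 (adjusted p = 0.0425) and Neurl1b at -0.45 ± 0.13 (adjusted p = 0.0471), and these calls were lost in 6, 8 and 11 of 12 such fits. Of several probe sets 1 was called for Notch4 (the other 2 at 0.16 and 0.14), Dtx2 (the other at 0.50), Heyl (1.31 and 1.16), Aph1b (-0.32) and Adam10 (-0.10, 0.02 and 0.09), and 2 of 3 for Nedd4. In the same cells 10 of 12 probe sets of dividing cells fell, and the mean of that list lay between -1.06 and -0.72 on APdE9 sections and between 0.146 and 0.819 on wild-type sections. Of the oligodendrocyte lineage 7 of 18 probe sets rose and none fell, with the list between 0.175 and 0.423 on APdE9 and between -0.756 and -0.604 on wild-type sections. Of mural and smooth muscle cells 4 of 17 fell and none rose, with the list between -0.162 and -0.068 on APdE9 and between 0.422 and 0.548 on wild-type sections. Of 29 astrocyte probe sets 6 rose and 6 fell, and of 21 probe sets of neural stem cells and radial glia 3 rose and none fell. The part of these lists in the differences was not tested.

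**Figure D5:**
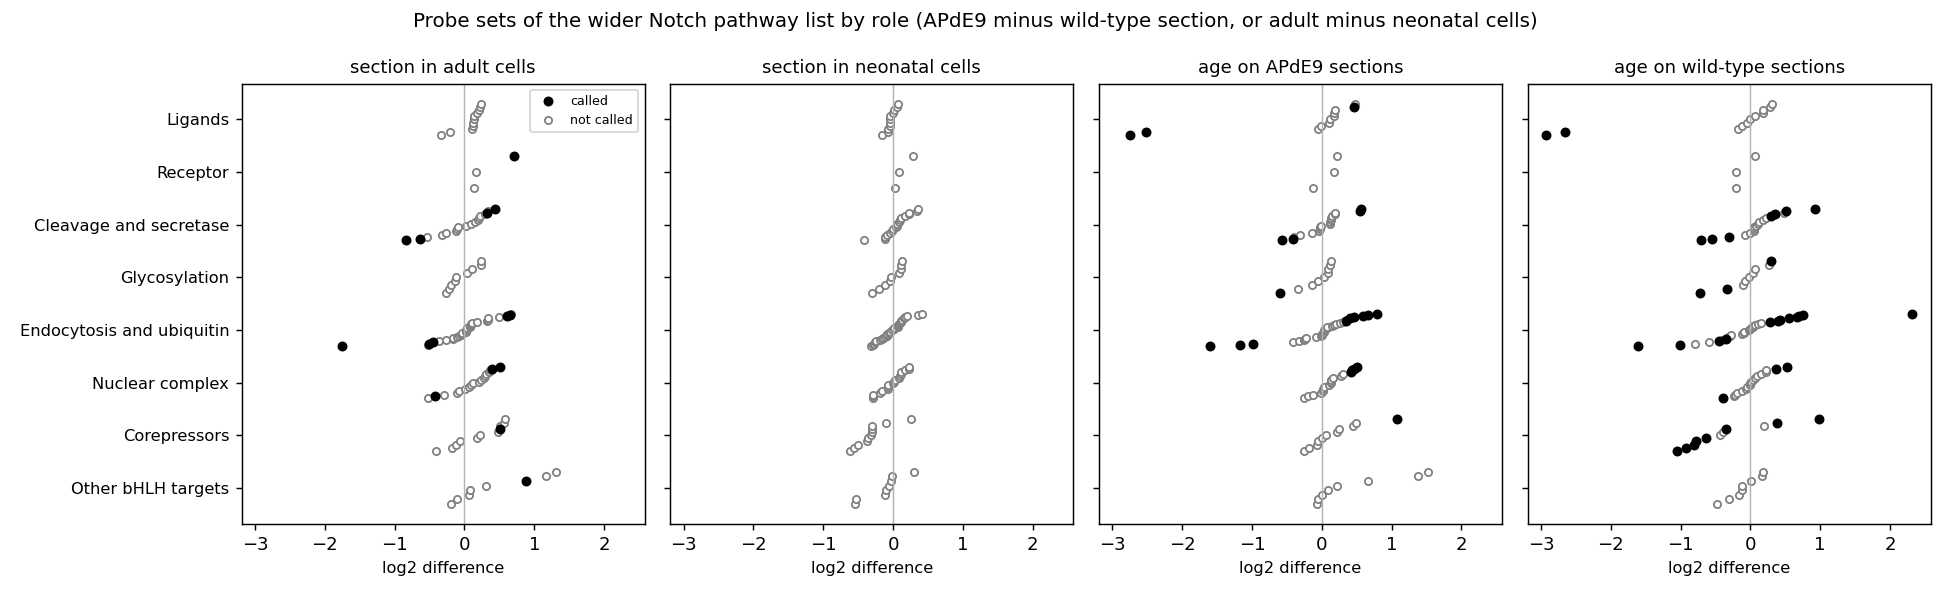
Log2 difference (horizontal axes) of each of the 108 probe sets of the wider Notch pathway list, by role (rows), for the section in adult and in neonatal cells (APdE9 minus wild-type) and for age on APdE9 and on wild-type sections (adult minus neonatal); filled points have a limma adjusted p under 0.05. The 2 Dner probe sets lie farthest to the left in both age panels, and no point is filled for the section in neonatal cells.

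For each member gene the closest profiles over the 12 arrays were sought by Pearson correlation, given here as a description: the arrays fall into 4 groups and share the age difference and the replicate-number pattern. The probe set of Nrarp that varied most ran closest to Notch1 1418633_at (r = 0.976) and to Pkdcc, a secreted kinase (r = 0.959). Hes5 ran closest to Gca (r = 0.981) and to Slc1a3, the astrocyte glutamate transporter (r = 0.978). Notch3 ran closest to Txndc15 (r = 0.993) and Tvp23a (r = 0.985), Notch1 to Itga7 (r = 0.974) and Ensa (r = 0.959), and Notch2 to Mtss1 (r = 0.960) and Col7a1 (r = 0.955). Jag1 ran closest to Pip5k1a (r = 0.983) and Map2k3 (r = 0.983), and Dll1 to Ttr (r = 0.947) and Cbx1 (r = 0.941). Hey1 ran closest to Tfcp2l1 (r = 0.953) and Gm9958 (r = 0.953), Hey2 to Tardbp (r = 0.931) and Sfpq (r = 0.928), and Hes1 to R3hcc1l (r = 0.937) and Supv3l1 (r = 0.873).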

How the data were processed

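The 12 one-colour Affymetrix arrays were each taken to hold RNA of 1 pool of astrocyte samples, which the labels do not state outright. RMA gave the signals, per the submitters' processing notes, with no version given in the sources used here. For 8 arrays the deposited columns were read as log2 signals, although the labels do not state the log base. Each of the 45095 complete probe sets had a median of 0 (within 1e-06) across arrays and had thus been centred. The deposited columns of the other 4 arrays held 6 whole numbers that may have lost a decimal point, for which their unit was classed as a score. These 6 were set to missing, none lay in a Notch probe set, and the remaining values of the 4 arrays were used on the same log2 scale. Array medians lay between -0.0385 and 0.0341, signal over background could not be computed, and the number of arrays limits the precision.

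Of 45101 probe sets, 64 controls were left out. Of the 45037 tested, 34945 had a single gene (34741 of them found in RefSeq), 932 had several genes and 9160 had no gene name. Using limma 3.58.1 (R 4.3.3), the means of the 4 groups were fitted over the 12 arrays (prior degrees of freedom 3.98, residual 8), giving age on each section, section at each age, and the difference of the section effects. Benjamini-Hochberg adjustment ran over all 45037 probe sets, and the threshold was 0.05. The model was tested on simulated data. Figures were drawn with matplotlib 3.10.9.

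The 10 members and the gene lists were chosen with earlier results of these data known. The rule for naming gave all 12 values of each member probe set called at least once and of the probe set with the largest SD of each other member gene. From the wider list it took up to 4 called genes per direction and comparison. Some genes of the lists are not reported here. Promoters were RefSeq sequences of GRCm38.p6.

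Replicate numbers were taken to pair arrays where deviations from the group means correlated above 0.1 in each pair. On APdE9 sections the adult and neonatal arrays met this (0.460, 0.266 and 0.503), and so did the neonatal arrays of both sections (0.239, 0.183 and 0.477). Other settings were the replicate block, array weights, quantile normalization, centring on array medians, a robust variance prior, only the arrays compared, dropping the 40% of probe sets with the lowest SD, gene means, leaving out each array, and, chosen after seeing the data, the 8 arrays numbered 1 and 2.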

Additional observations from a re-analysis of the deposited data

Results flagged for a closer look

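Of the Notch members, Nrarp 1417985_at had a section effect in adult cells that differed from that in neonatal cells. The difference was 2.14 on the log2 scale (limma adjusted p = 0.0441), and the other Nrarp probe set was not called in that test (adjusted p = 0.168). In the wider list the same test called 6 of 108 probe sets (5.56%) higher and 1 (0.926%) lower, where 3.36% of all probe sets were called higher and 3.36% lower. The corepressors Tle1 (1.13, adjusted p = 0.0208) and Tle3 (1.11 with adjusted p = 0.0462 for 1419655_at, and 0.60 with adjusted p = 0.0357 for 1449554_at) had a higher section effect in adult than in neonatal cells. The ubiquitin ligases Mib2 (0.80, adjusted p = 0.0289) and Dtx2 (0.76, adjusted p = 0.0354) and the coactivator Maml1 (0.58, adjusted p = 0.0484) did so too. The DNA-binding protein Rbpj, to which the Notch intracellular domain binds, had a lower one (-0.65, adjusted p = 0.0268, for 1 of its 3 probe sets). Tle1, Dtx2 and Maml1 were likewise each called in only 1 of several probe sets of the gene. Further Tle3 probe sets were not called, and 3 of 11 corepressor probe sets were. Of 12 fits that left out an array, the call was lost in 3 for Tle1, 9 for both called Tle3 probe sets, 7 for Mib2, 9 for Dtx2, 11 for Maml1 and 6 for Rbpj. For Nrarp 1417985_at it was lost in 9, and over gene means Nrarp was not called (limma adjusted p = 0.051). Groups of 3 arrays are too small to test single arrays as outliers.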

How the results depend on the processing

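The 85 member differences (17 probe sets in 5 comparisons) gave 1673 values under the alternatives, of which 1552 kept their direction and side of the threshold, 35 lost a call, 50 gained one and 36 changed sign. None of the 14 called differences changed sign. Counts of called member probe sets were 0 for section in neonatal cells, 0 for section in adult cells, 1 for the difference of the section effects, 5 for age on APdE9 sections and 8 for age on wild-type sections. With the replicate block they were 2, 2, 4, 7 and 12 in that order. The block fits replicate number over all 12 arrays at once, also where the numbers did not meet the rule for pairing. They met it only for section in neonatal cells and age on APdE9 sections. In adult cells and on wild-type sections the numbers correlated at down to -0.106 and 0.024. In the block fit Hey1 had an adjusted p of 0.00134 and Nrarp 1417985_at of 0.0178 for section in adult cells, and in the difference Hey1 had 0.00673, Nrarp 0.000846 and 0.00824 and Hes5 1456010_x_at 0.0482. For age on wild-type sections it added Dll1 (0.042), Hey1 (0.00036) and Hey2 (0.0218), all lower, and Jag1 1421106_at (0.0195), higher. Array weights gave 3, 1, 3, 5 and 11, quantile normalization 0, 0, 0, 5 and 9, median centring 0, 1, 1, 4 and 8, and the robust variance prior 0, 0, 0, 3 and 8. The 8 arrays numbered 1 and 2 gave 1, 0, 2, 4 and 9, and gene means 0, 0, 0, 3 and 5 of 10 genes. For age on APdE9 sections 2 were called higher, both of Jag1, and 3 lower, against 0 and 5 with quantile normalization, 0 and 4 with median centring and 0 and 3 with the robust variance prior, so both Jag1 calls were lost in each. Leaving out an array gave 0 to 1, 0 to 1, 0 to 2, 3 to 6 and 8 to 9. The cause of these changes was not tested.

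Sign changes touched only uncalled differences. On leaving out an array the log2 difference spanned 0 for section in neonatal cells, Dll1 1419204_at (-0.294 to 0.005), Jag1 1421106_at (-0.585 to 0.192), Jag1 1434070_at (-0.382 to 0.25), Notch1 1418634_at (-0.171 to 0.025), Notch2 1451889_at (-0.025 to 0.2) and Hes1 1418102_at (-0.069 to 0.917); for section in adult cells, Dll1 1419204_at (-0.019 to 0.109), Jag1 1421105_at (-0.068 to 0.09), Hes1 1418102_at (-0.311 to 0.78) and Nrarp 1417986_at (-0.049 to 0.303); for the difference of the section effects, Notch2 1451889_at (-0.036 to 0.189), Notch3 1421965_s_at (-0.055 to 0.224) and Hes1 1418102_at (-0.851 to 0.403); for age on APdE9 sections, Notch2 1451889_at (-0.024 to 0.157), Hey1 1415999_at (-0.217 to 0.914) and Hey2 1418106_at (-0.268 to 0.823); for age on wild-type sections, Notch2 1451889_at (-0.101 to 0.086). With the 8 arrays numbered 1 and 2 it became 0.081 for Dll1 and -0.092 for Notch2 1451889_at (section in neonatal cells), -0.216 for Hes1 (section in adult cells) and -0.103 for Notch2 1451889_at (age on wild-type sections). With median centring it became -0.008 for Jag1 1421105_at (section in adult cells) and -0.001 for Notch2 1451889_at (age on wild-type sections). With array weights it became -0.059 for Notch2 1451889_at (age on wild-type sections) and 0.124 for Hes1 (the difference of the section effects). Signal over background could not be computed, so how dim a probe set was is unknown.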
